A study of Mus musculus with 8 samples.

Results

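The miR-181 family was examined in small-RNA libraries from liver of WT and Snd1 KO mice. Its members were taken by name as 7 mature miRNAs, mmu-miR-181a-5p, mmu-miR-181b-5p, mmu-miR-181c-5p, mmu-miR-181d-5p, mmu-miR-181a-1-3p, mmu-miR-181a-2-3p and mmu-miR-181c-3p, of the 1341 known mature miRNAs that were listed in at least 1 of the 8 libraries. The 4 WT and the 4 KO mice were C57BL/6N males of 8 to 12 weeks, with 1 library per mouse (WT1 to WT4 and KO1 to KO4 by replicate number) from the left lobe of the liver, taken at about midday from animals that had been feeding. The KO mice lacked exon 1 of Snd1 in all tissues, because a floxed allele made in R1 (129/Sv) embryonic stem cells had been recombined in the germline by a CAG-driven Cre and then backcrossed. The loss of Snd1 itself could not be checked here, since its mRNA is not captured among small RNAs.

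Snd1 (Tudor-SN) is an RNA-binding protein with nuclease domains, and decay of mature miRNAs is among the functions assigned to it. A miRNA is cut from a hairpin precursor that yields a 5p and a 3p arm, and the arm kept in the Argonaute complex pairs with target mRNAs mainly through its seed, the short stretch behind the first base. The miR-181 family is best known from lymphocytes, where miR-181a tunes the sensitivity of the T-cell receptor in developing T cells and promotes B-cell differentiation, and in liver it has been studied mainly in tumour cells.

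The mature sequences are given because they set which members can be told apart and which share targets by seed. They were taken from RefSeq on GRCm38.p6, where all 7 members were matched, and capitals mark the seed (bases 2 to 8 from the 5′ end).
mmu-miR-181a-5p: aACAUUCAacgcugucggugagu
mmu-miR-181b-5p: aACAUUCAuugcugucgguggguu
mmu-miR-181c-5p: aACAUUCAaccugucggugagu
mmu-miR-181d-5p: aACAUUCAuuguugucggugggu
mmu-miR-181a-1-3p: aCCAUCGAccguugauuguacc
mmu-miR-181c-3p: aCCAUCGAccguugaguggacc
mmu-miR-181a-2-3p: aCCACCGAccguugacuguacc

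The 4 5p arms shared the seed ACAUUCA and were the only mature names in the RefSeq table that carried it. With positions counted from 1 at the 5′ end, mmu-miR-181a-5p and mmu-miR-181b-5p differed by A9U, C10U and A21G and by 1 base of length, and mmu-miR-181b-5p and mmu-miR-181d-5p by C12U and 1 base of length. The nearest pair was mmu-miR-181a-5p and mmu-miR-181c-5p, which were 1 deleted base apart. Among the 3p arms, mmu-miR-181a-1-3p and mmu-miR-181c-3p shared the seed CCAUCGA and differed by U16G and U19G, whereas mmu-miR-181a-2-3p differed from mmu-miR-181a-1-3p by U5C, inside the seed, and by U16C.

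The arms come from 6 hairpins in 3 pairs (GRCm38). Mir181a-1 (chr1:137966455-137966541, plus strand) and Mir181b-1 (chr1:137966639-137966718) lie in an intron of the noncoding gene Gm4258, and Mir181b-1 also lies in an exon of the lincRNA A430106G13Rik. The nearest protein-coding gene to them is Ptprc, which encodes the leukocyte antigen CD45, at 96332 and 96151 bp. Mir181a-2 (chr2:38852735-38852810, plus strand) and Mir181b-2 (chr2:38853830-38853918) lie antisense to an intron of Nr6a1, a nuclear receptor gene. Mir181c (chr8:84178873-84178961, minus strand) and Mir181d (chr8:84178716-84178787) lie in an intron of Nanos3, a germ-cell gene, on its own strand. Counted between the lowest arm coordinates of the hairpins, the pairs lie 182, 1104 and 165 bp apart.

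Mir181a-1 and Mir181a-2 are shown because both give the same 5p arm, so that its tags cannot be assigned to a hairpin, while their 3p arms can. Capitals mark the mature arms.
Mir181a-1: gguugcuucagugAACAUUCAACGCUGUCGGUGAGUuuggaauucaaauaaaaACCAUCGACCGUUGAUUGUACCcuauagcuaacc
Mir181a-2: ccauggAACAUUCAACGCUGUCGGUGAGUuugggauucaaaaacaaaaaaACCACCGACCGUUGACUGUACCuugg

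The same holds for mmu-miR-181b-5p, which is identical in Mir181b-1 and Mir181b-2. How the deposited tables treated tags that match more than 1 hairpin was not stated.

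Levels are given per 1000000 sequenced tags of a library (CPM), at totals of 16223610 to 27526162 tags, so that 1 tag was worth 0.0363 to 0.0616 CPM. Known miRNAs took 57.9 to 78.7% of the tags, and the libraries fell into 4 with a higher share (WT1, WT2, KO2 and KO3, 75.9 to 78.7%) and 4 with a lower one (WT3, WT4, KO1 and KO4, 57.9 to 67.6%). This split crosses genotype, with 2 libraries of each genotype on either side, and values within each side are given where they differ. The defining hepatocyte miRNA, mmu-miR-122-5p, was at 284227 to 351742 CPM in the higher-share and 206141 to 256876 CPM in the lower-share libraries. It is itself a large part of the known miRNA tags that set the split, so this separation is partly built in. The libraries are of bulk tissue, in which fewer cells of a type and less RNA per cell cannot be told apart.

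In liver the family was led by mmu-miR-181a-5p in all 8 libraries, and mmu-miR-181d-5p was the rarest 5p arm. By mean CPM among the 475 miRNAs tested, mmu-miR-181a-5p ranked 42, mmu-miR-181c-5p 99, mmu-miR-181b-5p 106, mmu-miR-181d-5p 228.5 (a tie), mmu-miR-181a-1-3p 270 and mmu-miR-181c-3p 353. Order was fixed in every library for all neighbours but mmu-miR-181c-5p and mmu-miR-181b-5p, whose ranges overlapped. The former was above the latter in WT3, WT4, KO1 and KO4 and below it in the other 4 libraries, which are the 2 sides of the split by known miRNA share. The ranges of mmu-miR-181d-5p and mmu-miR-181a-1-3p overlapped too, although the 5p arm was the higher in each of the 8 libraries.

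**Figure D1:**
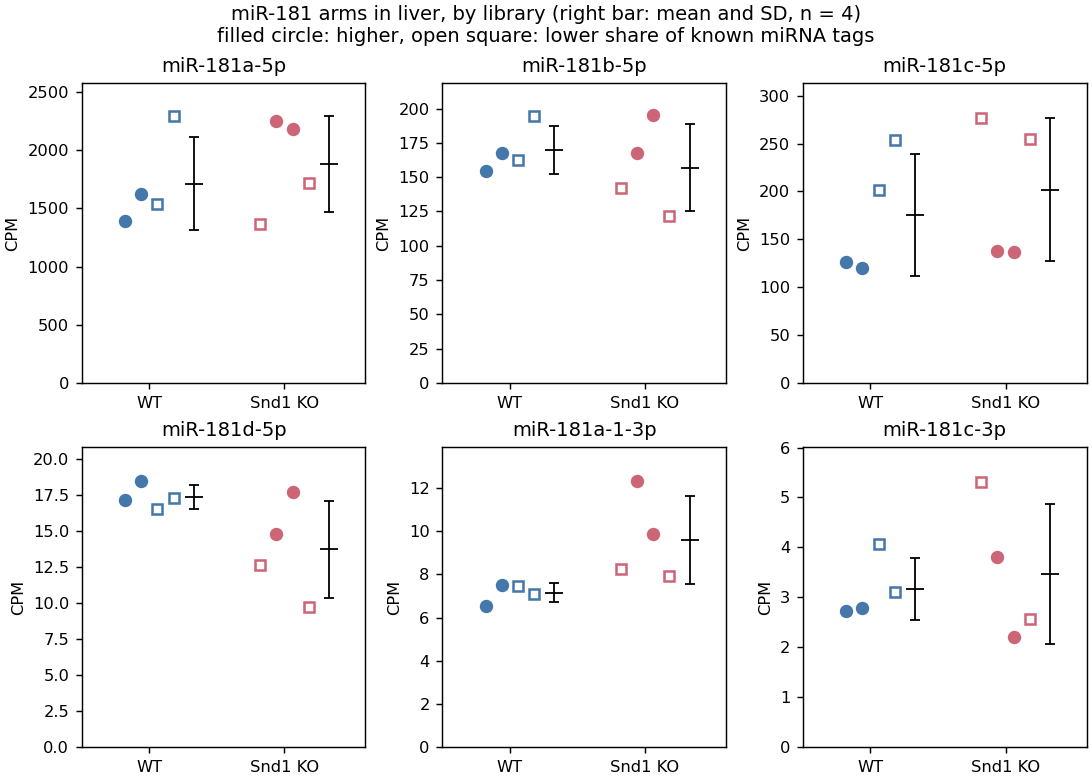
CPM of the 6 tested miR-181 arms in each library (vertical axes, linear from 0), for WT and Snd1 KO, with the mean and SD of each genotype (n = 4) at the right of its points. Filled circles are libraries with the higher and open squares those with the lower share of known miRNA tags. For miR-181a-1-3p the 4 KO points (7.92 to 12.35 CPM) lie above the 4 WT points (6.53 to 7.49 CPM), and for miR-181c-5p the open squares lie above the filled circles in both genotypes.

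mmu-miR-181a-5p, the member known for its part in T-cell receptor signalling, was at 1391, 1625, 1541 and 2292 CPM in WT1 to WT4 and at 1369, 2249, 2184 and 1719 CPM in KO1 to KO4. The groups overlapped over nearly their whole range, and KO1 was the lowest of all 8 libraries. Means were 1712 ± 399 CPM in WT and 1880 ± 414 CPM in KO (SD, n = 4 each). On the log2(CPM + 1) scale used for the main limma fold changes here, the difference between KO and WT was 0.13 with an SE of 0.26 (limma adjusted p = 0.971). Its sign depended on the libraries, since it was 0.56 within the higher-share libraries and -0.29 within the lower-share ones.

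mmu-miR-181b-5p, processed from the same clusters, was at 154, 167, 163 and 195 CPM in WT1 to WT4 and at 142, 168, 195 and 122 CPM in KO1 to KO4. KO1 and KO4 were below all WT libraries and KO3 was just above them. Group means were 169.8 ± 17.4 CPM in WT and 156.8 ± 31.7 CPM in KO (SD, n = 4 each), a log2 difference of -0.13 with an SE of 0.26 (limma adjusted p = 0.971). Within the higher-share libraries it was 0.17, and within the lower-share ones it was -0.43.

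mmu-miR-181c-5p, from the Nanos3 intron, was at 126, 120, 201 and 254 CPM in WT1 to WT4 and at 277, 138, 137 and 255 CPM in KO1 to KO4. Its values separated by known miRNA share, whereas the genotypes overlapped over all libraries. The 4 higher-share libraries lay at 120 to 138 CPM and the 4 lower-share ones at 201 to 277 CPM. Of the 475 tested miRNAs, 100 (21.1%) were likewise higher without overlap in the lower-share libraries. By genotype the means were 175.4 ± 64.0 and 201.7 ± 74.6 CPM (SD, n = 4 each). The log2 difference was 0.19 with an SE of 0.37 (limma adjusted p = 0.971), and 0.16 and 0.23 within the higher-share and lower-share libraries. KO was above WT on each side, at 137 and 138 against 120 and 126 CPM, and at 255 and 277 against 201 and 254 CPM. How many tested miRNAs share this order was not counted. With the known miRNA share as covariate the SE was 0.185 (limma adjusted p = 0.655).

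mmu-miR-181d-5p, its neighbour in the same intron, was at 17.1, 18.5, 16.5 and 17.3 CPM in WT1 to WT4 and at 12.6, 14.8, 17.8 and 9.74 CPM in KO1 to KO4. The WT livers lay close together, and of the KO livers only KO3 fell within their range, the other 3 being lower. Means were 17.4 ± 0.83 CPM in WT and 13.7 ± 3.39 CPM in KO (SD, n = 4 each). The log2 difference was -0.35 with an SE of 0.29 (limma adjusted p = 0.863), and it was -0.13 and -0.57 within the higher-share and lower-share libraries. Across all tested miRNAs, 8 (1.68%) were below WT in KO with no overlap, and no member was among them.

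mmu-miR-181a-1-3p, the 3p arm of the Mir181a-1 hairpin, was at 6.53, 7.49, 7.46 and 7.11 CPM in WT1 to WT4 and at 8.25, 12.35, 9.86 and 7.92 CPM in KO1 to KO4. Every KO library was above every WT library, as for 6 of the 475 tested miRNAs (1.26%), and it was the only one of the 6 tested members with this pattern. The tags behind these values numbered 160, 196, 121 and 133 in WT and 179, 340, 255 and 191 in KO. Means were 7.15 ± 0.446 and 9.60 ± 2.02 CPM (SD, n = 4 each), and the log2 difference of 0.36 with an SE of 0.27 did not pass the test (limma adjusted p = 0.853). It was 0.59 within the higher-share libraries, where KO2 and KO3 lie, and 0.13 within the lower-share ones.

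mmu-miR-181c-3p, the other arm of the Mir181c hairpin, was at 2.73, 2.79, 4.07 and 3.10 CPM in WT1 to WT4 and at 5.30, 3.81, 2.20 and 2.57 CPM in KO1 to KO4, from 57 to 115 tags a library. KO libraries gave both the highest and the lowest values. The log2 difference was 0.06 with an SE of 0.29 (limma adjusted p = 0.971), and it became -0.12 without KO1.

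mmu-miR-181a-2-3p, the 3p arm of the Mir181a-2 hairpin, was nearly absent. It had 1, 0, 1 and 0 tags in WT1 to WT4 and 1, 0, 1 and 2 tags in KO1 to KO4, and was not tested because it never reached 1 CPM. Since 5p tags of the 2 miR-181a hairpins are identical, the 3p arms were the only mature products that separate them. Over all libraries they had 1575 tags of mmu-miR-181a-1-3p and 6 of mmu-miR-181a-2-3p, the latter a share of 0.380% (exact 95% binomial interval 0.139 to 0.824%, counting error only). This is a share of 3p tags, and it does not give the part of each hairpin in the 5p tags. The other 3p arms of the family, which are not among the 7 members, were as rare: mmu-miR-181d-3p had 16 tags in all, mmu-miR-181b-1-3p had 2 and mmu-miR-181b-2-3p had 1.

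None of the 6 tested members passed an adjusted p of 0.05 in limma, and neither did any of the 475 tested miRNAs (0%; limma-voom also called 0). At an unadjusted p under 0.05 limma gave 20 of the 475 (4.21%; 11 higher and 9 lower in KO, or 13 higher and 4 lower with median-ratio scaling) and limma-voom 19, with no member among the 20. All 6 tested members were above 1 CPM in all 8 libraries. The log2 difference was positive for 4 of them and negative for 2, with a median of 0.10, against a median of -0.11 over all tested, of which 196 were positive and 279 negative. A p-value that misses the threshold does not show that the levels were equal.

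**Figure D2:**
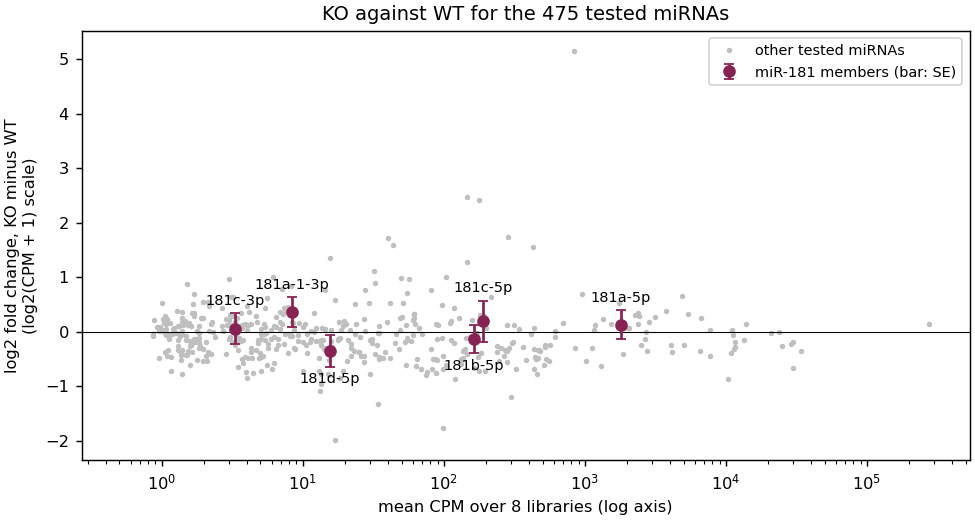
log2 difference between KO and WT on the log2(CPM + 1) scale (vertical axis) against mean CPM over the 8 libraries (log axis) for the 475 tested miRNAs. Large points are the 6 tested miR-181 members with their SE, which lie between -0.35 and 0.36, and none passed the test.

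The study compared the genotypes with DEGseq, which works on pooled tags, so that variation among mice does not enter. A model of pooled tags after that method called 4 of the 7 members, mmu-miR-181a-5p (0.24), mmu-miR-181c-5p (0.30) and mmu-miR-181a-1-3p (0.51) as higher in KO and mmu-miR-181d-5p (-0.27, all log2) as lower. These fold changes are log2 ratios of pooled tags scaled to the pooled known miRNA tags, so they are on another scale than the limma values. The pooled model called 447 of all 1341 miRNAs (33.3%), 210 higher and 237 lower. Those calls compare the pooled libraries, not the genotypes.

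Summed over the 4 arms that share a seed, the family came to 1688, 1931, 1922 and 2758 CPM in WT1 to WT4 and to 1801, 2570, 2533 and 2106 CPM in KO1 to KO4. WT gave both the lowest and the highest library, so that the genotypes overlapped, at means of 2075 ± 469 and 2252 ± 368 CPM (SD, n = 4 each). This was 0.216 to 0.408% of the known miRNA tags. mmu-miR-181a-5p made up 82.5 ± 1.67% of the sum in WT and 82.8 ± 5.19% in KO, mmu-miR-181b-5p 5.78 to 9.14%, mmu-miR-181c-5p 5.38 to 15.4% and mmu-miR-181d-5p 0.462 to 1.01% over all libraries. The lowest share of mmu-miR-181c-5p, 5.38%, was in KO2, a higher-share library, and the highest, 15.4%, in KO1, a lower-share one.

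**Figure D3:**
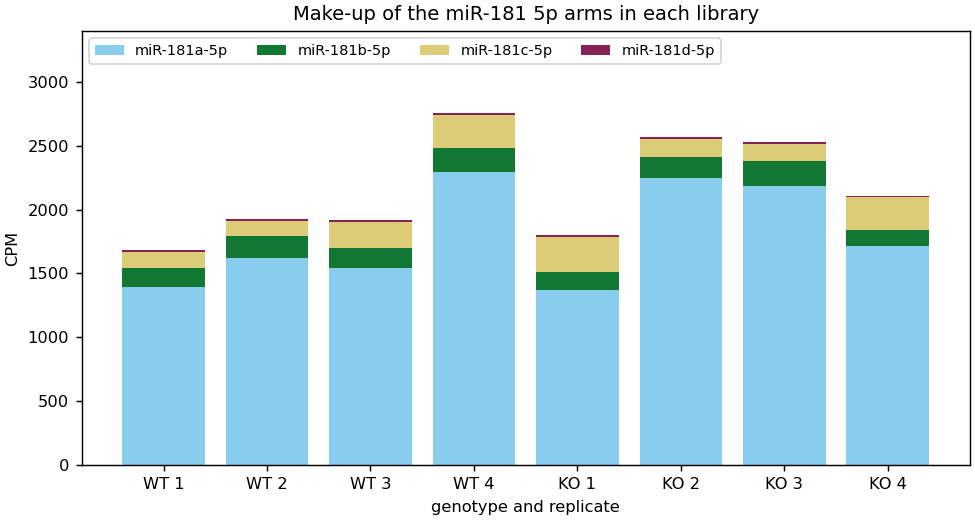
CPM of the 4 miR-181 5p arms stacked by library (linear axis from 0). miR-181a-5p forms 76.0 to 87.5% of every bar, and the tallest bar is WT4 at 2758 CPM.

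Tags that the authors assigned to the Rfam entry for the mir-181 precursor were a separate measure of the family. They were at 153 to 209 CPM in WT and 143 to 251 CPM in KO, which was 6.77 to 10.2% of the 5p sum, and the groups overlapped (means of 181.2 ± 26.7 and 196 ± 50.1 CPM, SD, n = 4 each).

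Ratios of arms within a library do not depend on library scaling, and 6 were tested by exact permutation of the genotype labels (two-sided, 70 assignments, smallest possible p of 0.0286). mmu-miR-181a-5p was 9.01 to 14.1 times mmu-miR-181b-5p. Its log2 ratio was 3.31 ± 0.17 in WT and 3.58 ± 0.25 in KO (exact permutation p = 0.171, 0.629 after Benjamini-Hochberg adjustment over the 6). The difference between KO and WT was 0.39 within the higher-share and 0.14 within the lower-share libraries. mmu-miR-181c-5p was 6.51 to 26.2 times mmu-miR-181d-5p, with log2 ratios of 3.26 ± 0.56 and 3.83 ± 0.88 (exact permutation p = 0.314, adjusted 0.629). This ratio was higher in all 4 lower-share libraries, at 12.2 or above, than in the higher-share ones, at up to 9.34. Its log2 difference between KO and WT was 0.29 within the higher-share and 0.84 within the lower-share libraries. On the higher-share side the KO ratios were 7.71 and 9.34 against 6.51 and 7.35 in WT. On the lower-share side they were 21.9 and 26.2 against 12.2 and 14.7, and this order within the sides was not tested. For the 2 clusters of a and b against that of c and d, the log2 ratio was 3.32 ± 0.31 in WT and 3.28 ± 0.81 in KO (exact permutation p = 0.914, adjusted 0.914). The difference between KO and WT was -0.04 in all, with opposite signs on the sides of the split, 0.40 within the higher-share and -0.49 within the lower-share libraries. Here too the sides of the split did not overlap, with linear ratios of 5.23 to 9.17 in the lower-share and 10.8 to 15.8 in the higher-share libraries.

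The 5p arm outnumbered the 3p arm for both miR-181a and miR-181c in every library. mmu-miR-181a-5p was 165 to 322 times the summed 3p arms of miR-181a, and the log2 ratio was 7.86 ± 0.31 in WT and 7.59 ± 0.20 in KO (exact permutation p = 0.257, adjusted 0.629). The highest value was that of WT4 at 8.32, and the other 3 WT libraries lay within the KO range. Between KO and WT this log2 ratio differed by -0.09 within the higher-share and -0.45 within the lower-share libraries. mmu-miR-181c-5p was 36.3 to 99.3 times mmu-miR-181c-3p, with log2 ratios of 5.71 ± 0.42 and 5.85 ± 0.60 (exact permutation p = 0.714, adjusted 0.914). Within the higher-share and lower-share libraries their difference was 0.09 and 0.18. For mmu-miR-181a-1-3p against mmu-miR-181a-2-3p the log2 ratio was 6.67 ± 0.61 and 6.76 ± 0.87 with 0.05 CPM added (exact permutation p = 0.914, adjusted 0.914), but it rests on the 6 tags of the latter, and the difference was 0.65 within the higher-share and -0.47 within the lower-share libraries. No ratio passed the test.

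**Figure D4:**
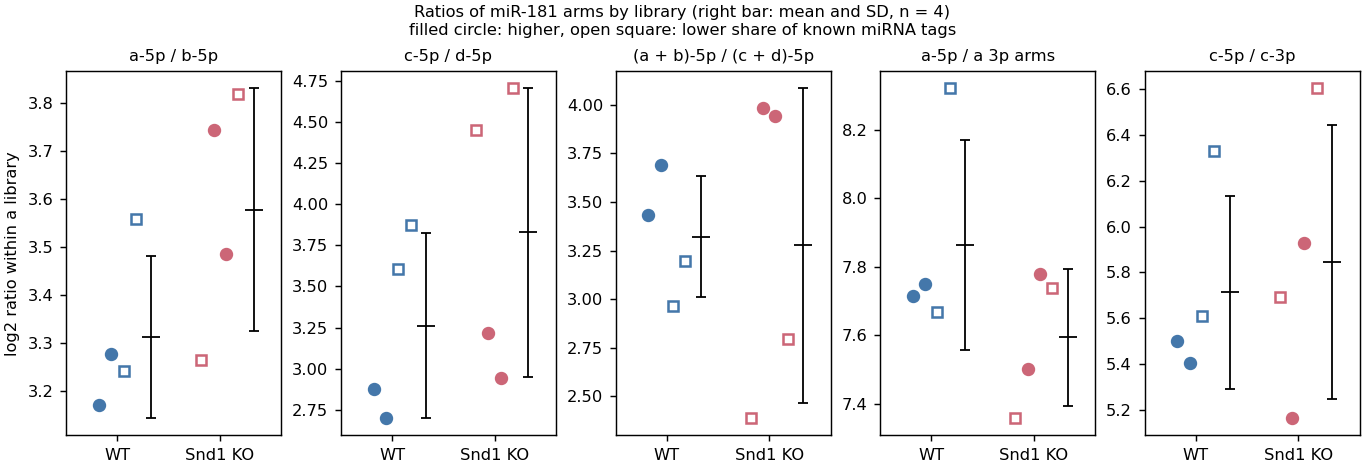
log2 ratios of miR-181 arms within each library (vertical axes, which do not start at 0), for WT and Snd1 KO, with mean and SD (n = 4). Symbols mark the higher (filled circles) and lower (open squares) share of known miRNA tags, and the c-5p to d-5p ratio is higher in every open square than in every filled circle.

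The levels of 3 pairs of members, chosen after their values were seen, were correlated across the 8 libraries on log2(CPM + 1). Adjustment was over these 3 pairs only and not over all pairs that could have been chosen. The p-values are therefore descriptive and do not serve as tests. mmu-miR-181b-5p and mmu-miR-181d-5p, from different chromosomes, had Pearson's r = 0.852 (exact permutation p = 0.00714, 0.0214 adjusted over the 3) and Spearman's rho = 0.714 (exact permutation p = 0.0576, adjusted 0.104). Without the 2 farthest libraries, KO3 and KO4, r was 0.607, and it was 0.196 and 0.953 within the higher-share and lower-share libraries. mmu-miR-181a-5p and mmu-miR-181b-5p, which share their transcripts, had r = 0.620 (exact permutation p = 0.104, adjusted 0.138) and rho = 0.690 (exact permutation p = 0.0694, adjusted 0.104), with r = 0.493 without WT4 and KO2 and 0.736 and 0.599 within the sides of the split. For mmu-miR-181a-5p and mmu-miR-181a-1-3p, the arms of 1 hairpin, r was 0.574 (exact permutation p = 0.138, adjusted 0.138) and rho was 0.238 (exact permutation p = 0.582, adjusted 0.582). Their r was 0.778 without WT4 and KO2, and 0.958 and -0.82 within the higher-share and lower-share libraries, so its sign depended on the side. For mmu-miR-181c-5p no pooled correlation is given, since its libraries form separate clusters.

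Outside the family, the tested miRNAs whose log2(CPM + 1) followed mmu-miR-181a-5p most closely over the 8 libraries were mmu-miR-18a-5p (r = 0.905), mmu-miR-31-5p (r = 0.871) and mmu-miR-297a-5p (r = 0.851). These r values were chosen as the highest over the tested miRNAs and describe likeness only. By the same ranking, mmu-miR-30c-2-3p, mmu-let-7d-3p and mmu-let-7b-5p came nearest to mmu-miR-181c-5p, and each was, like it, higher without overlap in the lower-share libraries. Their r is not given for the reason above.

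miRNAs that mark other cells of the liver were set beside the family. None of the 7 leukocyte markers passed the limma test (2 positive and 5 negative, median log2 difference -0.21), and their summed level was 1346 to 2118 CPM in WT and 1738 to 2092 CPM in KO. Most of this sum was mmu-miR-146a-5p, at 908 to 1405 CPM. mmu-miR-150-5p had a log2 difference of 1.74, with WT1 at 9.62 CPM, and mmu-miR-223-3p one of -0.80 (limma adjusted p = 0.842 for both). Of 12 miRNAs known from lymphocyte development, which include 6 of the 7 leukocyte markers, 6 were positive and 6 negative with a median of -0.01, and 0 were called. No hepatocyte (4), endothelial (2), stellate and mesenchymal (5), erythroid (4) or biliary (5) marker was called or free of overlap between the genotypes. Single markers that separated the sides of the split went both ways, and they are described without a test. Over the 475 tested miRNAs, 100 (21.1%) were higher without overlap in the lower-share libraries. Tested miRNAs outside these lists were also higher without overlap in the higher-share libraries, and their share was not counted. Markers with that direction are therefore given without a background share. Higher without overlap in the higher-share libraries, opposite to mmu-miR-181c-5p, were mmu-miR-122-5p of the hepatocyte list, mmu-miR-126a-3p of the endothelial list (12203 to 18811 against 5556 to 6286 CPM), mmu-miR-451a of the erythroid list (13254 to 17216 against 7084 to 9488 CPM) and mmu-miR-20a-5p of the lymphocyte development list (85.9 to 168 against 40.2 to 80.7 CPM). Higher in the lower-share libraries, as mmu-miR-181c-5p was, were the leukocyte marker mmu-miR-342-3p (331 to 494 against 162 to 219.5 CPM) and the stellate marker mmu-miR-214-3p (92.2 to 296 against 38.7 to 76.1 CPM). No list separated as a whole marker by marker. mmu-miR-126a-5p, the other endothelial marker, overlapped between the sides, as did the other 3 markers of the erythroid list and the other 3 of the hepatocyte list. Every other marker of the leukocyte list and of the stellate and mesenchymal list overlapped too, as did all biliary markers. Summed by list, the hepatocyte markers were at 326629 to 382444 CPM in the higher-share and 244255 to 296865 CPM in the lower-share libraries. The endothelial sums were 12518 to 19516 against 5812 to 6653 CPM and the erythroid ones 13338 to 17397 against 7363 to 9826 CPM. These sums consist mostly of the marker named above, and the sums of the other lists overlapped between the sides. Because mmu-miR-122-5p is a large part of the tags that set the split, its separation and that of the hepatocyte sum are partly built in. The part of any of these in the levels of mmu-miR-181c-5p was not tested.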

How the data were processed

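The authors separated RNA of 18 to 30 bases, ligated adaptors, amplified by PCR, sequenced at BGI, mapped tags with Bowtie to GRCm38 (version not given in the sources used here) and compared genotypes with DEGseq. The deposited values, headed TPM, are tags per 1000000 of the whole library (CPM), rounded to 2 decimals and not divided by length. Repeated rows of a name were summed and an unlisted name was set to 0. Adaptor ligation and PCR can favour some sequences, so levels of different miRNAs are compared as tags. Total tags were recovered as the number that made all values whole within 0.0051 CPM. The file of KO1 leaves out the genomic classes. Intervals cover counting error only, since no molecular identifiers were used.

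miRNAs that reached 1 CPM in 4 or more libraries were tested with limma 3.58.1 (R 4.3.3, mean-variance trend) on log2(CPM + 1), KO against WT, with Benjamini-Hochberg adjustment over 475 and a threshold of 0.05. Ratios had 0.05 CPM added. The script was tested on simulated data. Named miRNAs were the 7 members, other arms of their hairpins and the 3 tested miRNAs most correlated with mmu-miR-181a-5p and with mmu-miR-181c-5p. Single markers of the lists were named too, among them those moving with a member. Members and lists were chosen with earlier results of these data known. Alternatives were other scalings, pseudocounts and filters, limma-voom, pooled tags, a replicate block, the known miRNA share as covariate and leaving out each library. Hairpin and gene positions came from GENCODE vM21 and RefSeq. Each library came from 1 mouse. The paper took littermates of heterozygous crosses for its experiments, but the sample labels do not give the litters. Litter therefore did not enter any model.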

Additional observations from a re-analysis of the deposited data

Results flagged for a closer look

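In WT4 the log2 ratio of mmu-miR-181a-5p to the summed miR-181a 3p arms was 8.32, whereas the other 3 WT libraries lay between 7.67 and 7.75, so this library stood apart from its group by Dixon's criterion. It had the highest mmu-miR-181a-5p of the 8 libraries (2292 CPM) and an ordinary level of mmu-miR-181a-1-3p (7.11 CPM). Of 38 groups of values checked, 1 stood apart in this way, and chance alone gives about 1.9. Without WT4 the difference of this ratio between KO and WT was -0.12 in place of -0.27.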

How the results depend on the processing

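The difference between KO and WT kept its sign in all limma alternatives for mmu-miR-181a-5p (0.04 to 0.28), mmu-miR-181b-5p (-0.24 to -0.02), mmu-miR-181c-5p (0.02 to 0.40), mmu-miR-181d-5p (-0.47 to -0.21) and mmu-miR-181a-1-3p (0.24 to 0.44), and no member passed the threshold in any of them. Left-out libraries gave -0.12 to 0.20 for mmu-miR-181c-3p and -0.037 to 0.17 for the median of the 6 tested members, both negative only without KO1. Over all miRNAs, leaving out 1 library gave 0 to 1 calls (1 without WT2), the known miRNA share as covariate gave 1, and pooled tags gave 447, with 4 members called, since pooling leaves out the spread between mice. Leaving out 1 library moved the log2 ratio difference of a and b to c and d between -0.28 and 0.25, that of mmu-miR-181a-1-3p to mmu-miR-181a-2-3p between -0.31 and 0.37, and that of mmu-miR-181c-5p to mmu-miR-181c-3p between -0.12 and 0.36. Their signs therefore depend on single libraries, and the cause was not tested. Of 72 ratio differences under alternatives, 63 kept their direction and 9 turned, 7 of these with a library left out and the other 2 within a side of the split by known miRNA share (0.40 and -0.47, for the first and second of these ratios).

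Deviations of same-numbered libraries from their genotype means correlated at -0.46, 0.35, -0.53 and 0.07, which gave no sign of pairing by replicate number. WT1 and KO1, and WT3 and KO3, lie on opposite sides of the split by known miRNA share. These correlations therefore cannot decide whether the numbers pair mice. With a replicate block 0 miRNAs were called and 15 had an unadjusted p under 0.05, against 20 without it. The planned count models were not run because 2-decimal rounding kept 6 of the 8 tables from the check for whole tags. limma-voom was added in their place after the data were seen. With 6 tags in all, mmu-miR-181a-2-3p allows no comparison at this depth.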
